A study of Gallus gallus with 20 samples.

Results

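Scutate scales that misexpressed Sox2 were set against scutate scales that misexpressed Zic1-deltaC, in 5 of the 20 libraries of a chicken series and over all 16290 genes of its expression table. The Sox2 scales gave 2 libraries and the Zic1-deltaC scales 3. Both genes were delivered by RCAS, a replicating avian retrovirus that carries an inserted gene into dividing cells. Scutate scales are the broad plates of the bird's shank and foot. All embryos were White Leghorn, collected at embryonic day 16. The labels say that virus was delivered on embryonic day 3 into both the hind limb and the amniotic cavity, or RCAS plasmid was electroporated, and which embryo had which is not given. No promoter or cell type restricting either gene is named, and the Zic1-deltaC construct is not described further. Control scales with RCAS carrying green fluorescent protein (GFP, n = 2) and normal feather (n = 2) serve here for orientation. The spread behind the p-values was estimated within groups over all 20 libraries in 9 groups. The other groups in that fit were scales with RCAS carrying Sox18, beta-catenin, Grem1 or Spry2 and scales treated with retinoic acid. Nothing in the labels ties replicates to different embryos, so this spread between replicates may be technical.

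Sox2 is a transcription factor known for keeping neural and other progenitor cells undifferentiated, and Zic1 is a zinc-finger transcription factor known for its role in the dorsal neural tube. Scale and feather are both hardened by beta-keratins, structural proteins of birds and reptiles, whose genes lie in clusters and are expressed in sets as the epidermis matures. In the files they are named by chromosome and class, read here as claw, scale, keratinocyte (Ktn), feather (FK) and feather-like (FL) keratins. Alpha-keratins (KRT genes) form the intermediate filaments of epithelial cells and mark layers and states of the epidermis. Their roles below are those known in mammals.

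Expression was given in RPKM, reads per kilobase of gene model scaled to the mapped reads of the library, and the depth is unknown. RPKM summed to 377612 and 373552 in the Sox2 libraries, against 381778, 377156 and 393960 in the Zic1-deltaC libraries. The 180 keratins took 5.91% and 4.39% of that sum in Sox2 scales, against 19.5%, 18% and 16.7% in Zic1-deltaC scales. Because RPKM is a share of the total, counts are also given after each library was divided by its median ratio to the geometric mean of all libraries (median-ratio scaling). The basal epidermal keratins KRT5, KRT14 and KRT15 were abundant in all 5 libraries. Markers of dermis, vessel, blood, muscle, nerve and pigment cells carry no name in the files and were not assessed.

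Most of the called differences were small, and keratins made up most of the large falls. Across the 11863 genes tested (at least 1 RPKM in at least 2 of the 20 libraries), limma called 5425 higher (45.7%) and 1295 lower (10.9%) in Sox2 than in Zic1-deltaC scales at an adjusted p below 0.05. The median gene stood 0.24 higher in Sox2 scales on the log2(RPKM + 1) scale. After median-ratio scaling the median was -0.0027, and 2061 genes (17.6%) were higher and 2533 (21.7%) lower. Higher genes remained the more frequent, by less than as deposited, after quantile normalization (3160 higher, 2158 lower) and with equal non-keratin sums (3080 higher, 1884 lower). Without Sox2 replicate 2 the count of higher genes was 3611. Of the called genes, 48 were higher and 135 lower by a log2 of 2 or more, and 15 of those 48 and 73 of those 135 were keratins. At a log2 of 5 or more, 31 of 32 lower genes were keratins.

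**Figure D1:**
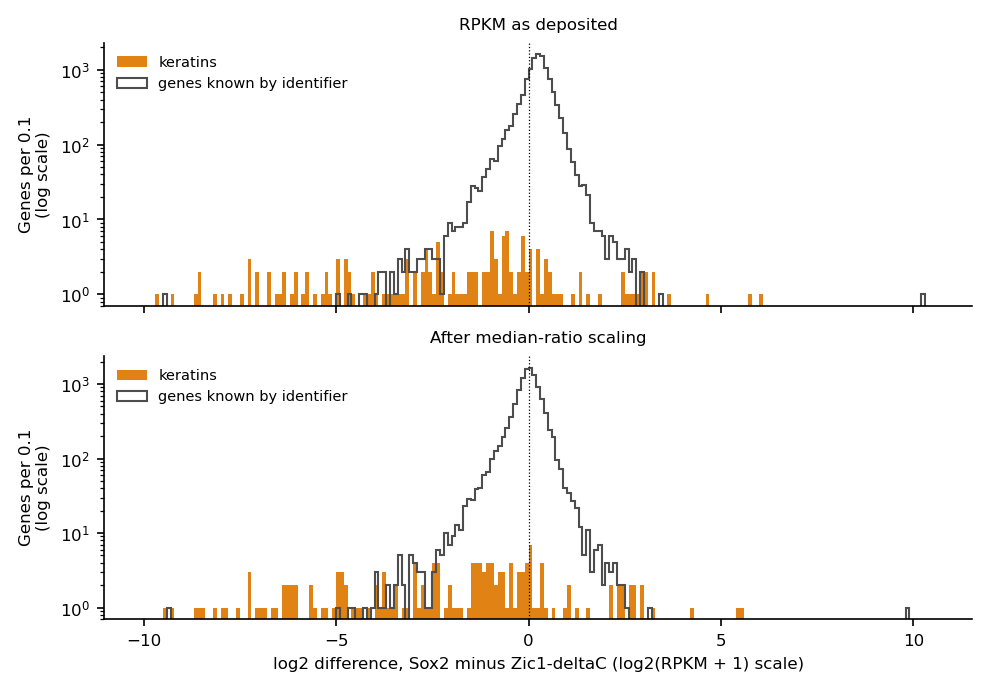
Number of tested genes (log axis) in bins of 0.1 of the log2 difference, Sox2 minus Zic1-deltaC, for RPKM as deposited (above) and after median-ratio scaling (below); filled bars are keratins, the outline is genes known by identifier and the dotted line marks no difference. The bulk of genes centres on a median of 0.24 as deposited and -0.0027 after scaling, while the far lower tail is mostly keratins (31 of the 32 genes lower by 5 or more).

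The largest changes among genes known only by an Ensembl identifier were high in 1 group each. ENSGALG00000008848 had 2068.5 and 2093 RPKM in Sox2 scales, against 0.8, 0.7 and 0.6 RPKM in Zic1-deltaC scales (log2 difference 10.26, SE 0.11, limma adjusted p = 1.29e-19). None of the 18 libraries outside the Sox2 group exceeded 0.8 RPKM. ENSGALG00000006811 had 0.3 and 0.3 RPKM in Sox2 scales, against 789, 923 and 993 RPKM in Zic1-deltaC scales (log2 difference -9.43, SE 0.14, limma adjusted p = 1.11e-17), and its highest value in the 17 libraries outside the Zic1-deltaC group was 1.1 RPKM. The files do not pair identifiers with names, so neither is named and the delivered genes were not looked up.

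The genes next in size among those without a name had their highest group mean outside the compared groups, in Grem1 and beta-catenin scales. ENSGALG00000000059 had 22.5 and 47 RPKM in Sox2 scales, against 2.2, 2.1 and 1.9 RPKM in Zic1-deltaC scales and 3.7 and 6 RPKM in GFP scales (log2 difference 3.45, SE 0.27, limma adjusted p = 5.03e-08 for Sox2 against Zic1-deltaC). ENSGALG00000019229 had 0.6 and 1 RPKM in Sox2 scales, against 52.1, 62 and 54.9 RPKM in Zic1-deltaC scales (log2 difference -5.00, SE 0.17, limma adjusted p = 2.04e-12). GFP scales, at 62.2 and 47.3 RPKM, had a level like that of Zic1-deltaC scales (log2 difference of Zic1-deltaC to GFP 0.05, limma adjusted p = 0.866).

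Beta-keratin transcripts were scarcer in Sox2 than in Zic1-deltaC scales in every class but the feather-like one. Of the 163 keratins tested, alpha-keratins included, 99 were lower and 21 higher, against 10.9% lower and 45.7% higher over all genes. The 33 alpha-keratins gave 12 of the lower and 16 of the higher calls. After median-ratio scaling 101 of 162 tested keratins were lower and 20 higher, beside 21.7% lower and 17.6% higher over all genes. The median keratin differed by -1.49, against 0.24 over all genes. Both Sox2 libraries lay below all Zic1-deltaC libraries for 104 tested keratins and above them for 24, where 15.2% of all genes lay below and 61.8% above. The other 17 keratins did not pass the filter and none of them exceeded 0.5 RPKM in the 5 libraries. Summed levels were compared by exact permutation, with the two-sided p taken as 2 times the smaller one-sided p. With 2 libraries against 3, a p so defined cannot fall below 0.2, and every class sum below reached that smallest value. In whole tissue, a loss of keratin-making cells and less keratin RNA per cell cannot be told apart.

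**Figure D2:**
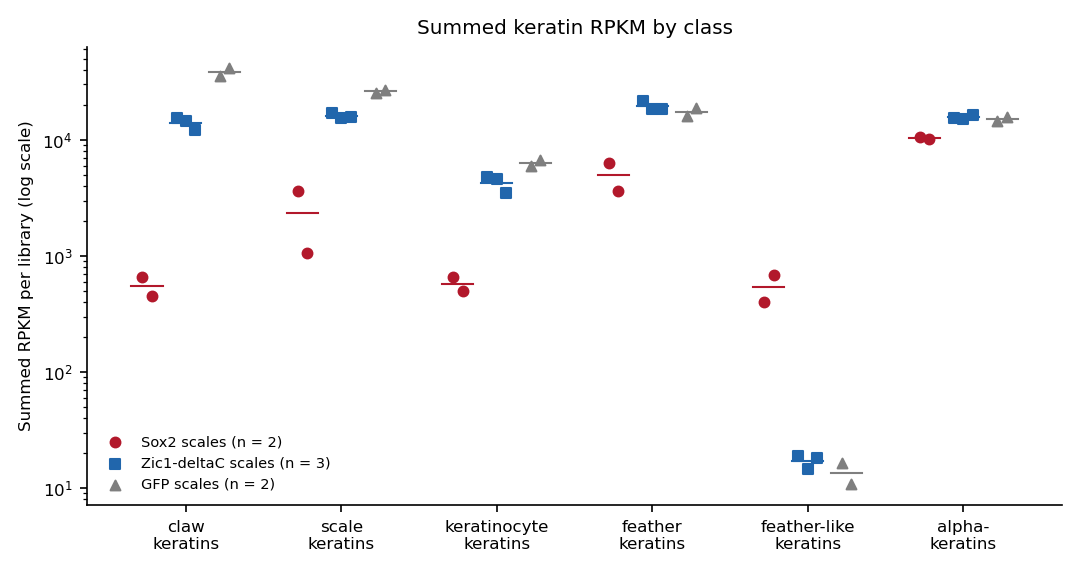
Summed RPKM (log axis) of each keratin class, 1 point per library and a line at the group mean, for Sox2, Zic1-deltaC and GFP scales. Claw keratins sum to 656 and 452 RPKM in Sox2 scales and to at least 12133 RPKM in Zic1-deltaC scales, while feather-like keratins sum to 404 and 678 RPKM in Sox2 scales and to at most 19 RPKM in Zic1-deltaC scales.

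Claw keratins, the class named for the claw, showed the deepest deficit of the classes. They summed to 656 and 451.5 RPKM in Sox2 scales, against 15493, 14383 and 12133 RPKM in Zic1-deltaC scales. The means were 554 ± 144 RPKM (SD, n = 2) and 14003 ± 1712 RPKM (SD, n = 3), 25.3-fold lower in Sox2 scales. GFP scales had 35110.4 and 41691 RPKM, above both groups. All 12 claw keratins were lower in Sox2 scales, between -8.55 and -3.33 on the log2 scale with a median of -5.92, and all 12 were called under each of the 16 alternatives.

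Chr25_Claw12 had the largest difference of the class. It had 4.8 and 1.3 RPKM in Sox2 scales, against 1601, 1420.1 and 1119 RPKM in Zic1-deltaC scales (log2 difference -8.55, SE 0.36, limma adjusted p = 3.8e-11). GFP scales had 4146 and 4644 RPKM, from which Sox2 scales differed by -10.23 and Zic1-deltaC scales by -1.68, in comparisons that share the GFP libraries. Chr25_Claw3 had 2.4 and 0.5 RPKM in Sox2 scales, against 363, 364 and 314 RPKM in Zic1-deltaC scales (log2 difference -7.26, SE 0.38, limma adjusted p = 3.6e-10). The most abundant member was also the least reduced. Chr25_Claw9 had 292 and 216 RPKM in Sox2 scales, against 2815, 2515 and 2319.6 RPKM in Zic1-deltaC scales (log2 difference -3.33, SE 0.27, limma adjusted p = 5.1e-08). Claw keratins 10 to 12 summed to 47.4 and 31.7 RPKM in Sox2 scales, against 2482, 2261 and 1879 RPKM in Zic1-deltaC scales, and claw keratins 1 to 9 to 608 and 419.8 RPKM, against 13011.5, 12122 and 10254 RPKM.

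Scale keratins, the class named for the scale, were lower in Sox2 scales in 11 of 16 tested members and higher in 0. Over all genes 10.9% were lower and 45.7% higher. The class summed to 3637 and 1069 RPKM in Sox2 scales, against 17152.5, 15461 and 15623 RPKM in Zic1-deltaC scales. In GFP scales it summed to 25381 and 27048 RPKM. The mean was 6.83-fold lower in Sox2 than in Zic1-deltaC scales, 4.42-fold by Sox2 replicate 1 alone and 15-fold by replicate 2. Chr25_scale17 had the largest difference, with 44.8 and 19.2 RPKM in Sox2 scales, against 1332, 1093 and 1406 RPKM in Zic1-deltaC scales (log2 difference -5.38, SE 0.29, limma adjusted p = 4.75e-10). It was at 1599 and 1648 RPKM in GFP scales, and Zic1-deltaC scales did not differ from these past the test (log2 difference -0.35, limma adjusted p = 0.4).

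Chr25_scale15, the scale keratin with the highest mean over the 5 libraries, had 1331 and 409.9 RPKM in Sox2 scales, against 6132, 5684 and 5388 RPKM in Zic1-deltaC scales (log2 difference -2.95, SE 0.32, limma adjusted p = 1.52e-06). Chr25_scale14, chosen after its values were seen, had 1650.2 and 465 RPKM in Sox2 scales, against 5834, 5178 and 5274 RPKM in Zic1-deltaC scales (log2 difference -2.63, SE 0.33, limma adjusted p = 9.38e-06). Its difference was -1.72 without Sox2 replicate 2. In both genes Sox2 replicate 1 was more than 3-fold above replicate 2, yet below every Zic1-deltaC library.

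**Figure D3:**
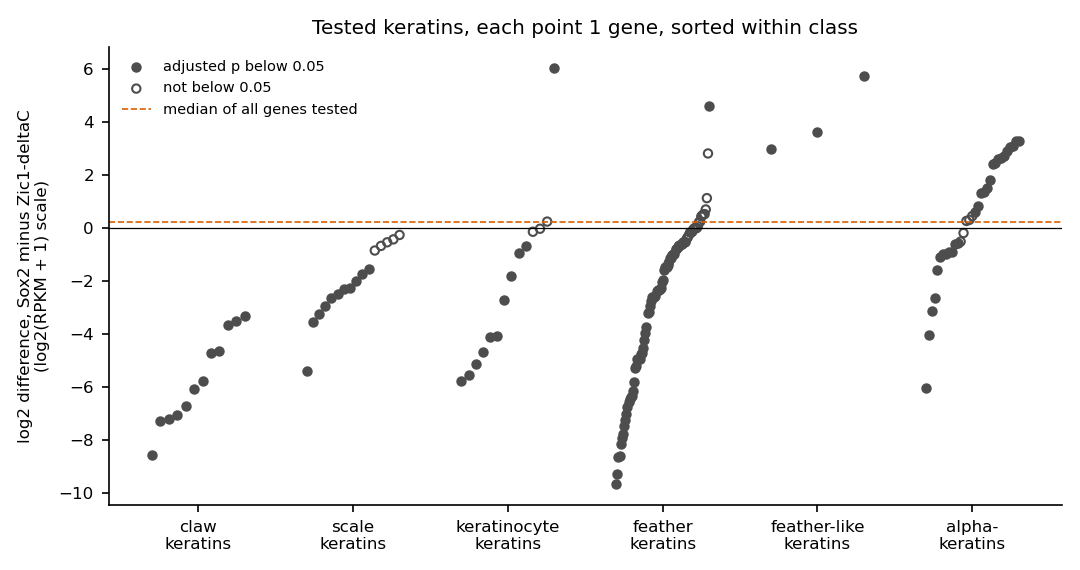
The log2 difference, Sox2 minus Zic1-deltaC, of each tested keratin, sorted within its class; filled points have an adjusted p below 0.05 and the dashed line is the median of all genes tested. The 12 claw keratins lie between -8.55 and -3.33 and the 3 feather-like keratins between 2.97 and 5.74, and alpha-keratins lie on both sides of 0.

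Keratinocyte keratins, beta-keratins named for the cells of the epidermis, were lower in Sox2 scales in 10 of 14 tested members and higher in 1. Over all genes 10.9% were lower and 45.7% higher. The class summed to 656 and 499 RPKM in Sox2 scales, against 4753, 4606 and 3479 RPKM in Zic1-deltaC scales, 7.41-fold lower in the mean. Chr25_Ktn15 had 18.3 and 14.6 RPKM in Sox2 scales, against 1083, 1271 and 620.2 RPKM in Zic1-deltaC scales (log2 difference -5.77, SE 0.28, limma adjusted p = 1.52e-10). Chr25_Ktn3, the most abundant, had 152 and 43.9 RPKM in Sox2 scales, against 1668, 1504.5 and 1208 RPKM in Zic1-deltaC scales (log2 difference -4.13, SE 0.32, limma adjusted p = 3.55e-08).

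Chr25_Ktn14 went the other way and had the largest rise of the tested keratins. It had 72.1 and 71.4 RPKM in Sox2 scales, against 0.1, 0.1 and 0.1 RPKM in Zic1-deltaC scales (log2 difference 6.05, SE 0.19, limma adjusted p = 1.64e-12). GFP scales had 0.3 and 0.1 RPKM and feather 0 and 0.1 RPKM, so of these groups the gene was above 1 RPKM in Sox2 scales alone. Chr25_Ktn2, chosen after its values were seen, had 149 and 145 RPKM in Sox2 scales, against 146, 116 and 112 RPKM in Zic1-deltaC scales. These libraries overlapped and the gene did not pass the test (log2 difference 0.25, SE 0.16, limma adjusted p = 0.213), with a difference of -0.038 after median-ratio scaling.

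Feather-like keratins were higher in Sox2 scales in 3 of 3 members, as deposited and under each of the 16 alternatives, where 45.7% of all genes were higher as deposited. They summed to 404 and 678 RPKM in Sox2 scales, against 19, 14.7 and 18 RPKM in Zic1-deltaC scales and 16.3 and 10.8 RPKM in GFP scales, 31.4-fold higher in the mean than in Zic1-deltaC scales. Chr25_FL2 carried most of the sum. It had 309 and 574 RPKM in Sox2 scales, against 8.8, 5.8 and 6.4 RPKM in Zic1-deltaC scales (log2 difference 5.74, SE 0.39, limma adjusted p = 6.71e-09). Chr25_FL3 had 14.7 and 17.1 RPKM in Sox2 scales, against 0.4, 0.3 and 0.4 RPKM in Zic1-deltaC scales (log2 difference 3.63, SE 0.37, limma adjusted p = 8.68e-07). Chr25_FL1 had 80.6 and 86.9 RPKM in Sox2 scales, against 9.8, 8.6 and 11.2 RPKM in Zic1-deltaC scales (log2 difference 2.97, SE 0.33, limma adjusted p = 2.29e-06). Feather itself had 17.7 and 10.8 RPKM of Chr25_FL2, below both Sox2 libraries. Elsewhere in the series each of the 3 genes was higher than in Sox2 scales. The highest library outside the Sox2 group had 818.6 RPKM of Chr25_FL2, 101.9 RPKM of Chr25_FL3 and 362.8 RPKM of Chr25_FL1.

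Feather keratins, which fill the barbs and barbules of feathers, were lower in Sox2 scales in 54 of the 84 tested of 97 members and higher in 1. Over all genes 10.9% were lower and 45.7% higher. Some tested members could not be called, such as Chr27_FK18, listed at 0 in all 5 libraries. The class summed to 6271 and 3622 RPKM in Sox2 scales, against 21647.5, 18443.5 and 18296.5 RPKM in Zic1-deltaC scales. In GFP scales it summed to 15949.8 and 18785.5 RPKM. The mean was 3.93-fold lower in Sox2 than in Zic1-deltaC scales, 3.1-fold by Sox2 replicate 1 and 5.37-fold by replicate 2. Near-identical feather keratins may share reads, so a value of a single member is less certain than the sum.

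The deficit differed in size between gene clusters, a difference that was not tested. Chromosome 27 feather keratins summed to 531 and 70.5 RPKM in Sox2 scales, against 7623, 7261 and 6381 RPKM in Zic1-deltaC scales, 13.3-fold lower by Sox2 replicate 1 and 101-fold by replicate 2. Chromosome 25 feather keratins summed to 4753 and 2942 RPKM in Sox2 scales, against 10154, 7937 and 8640.4 RPKM in Zic1-deltaC scales, 2.32-fold lower in the mean. Members not placed on a chromosome summed to 345 and 105 RPKM in Sox2 scales, against 2596, 2150.5 and 2183 RPKM in Zic1-deltaC scales. By gene, 28 of 44 tested chromosome 27 members were lower and 1 higher (median -3.57). On chromosome 25, 9 of 13 members were lower and 0 higher (median -0.98). Of unplaced members, 13 of 22 were lower and 0 higher (median -2.29). Beside these counts, 10.9% of all genes were lower and 45.7% higher.

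Some feather keratins were nearly absent in Sox2 scales and stood above GFP in Zic1-deltaC scales. Chr27_FK1, the most abundant of chromosome 27, had 1.6 and 0.4 RPKM in Sox2 scales, against 1368, 1116 and 1093 RPKM in Zic1-deltaC scales (log2 difference -9.28, SE 1.16, limma adjusted p = 7.96e-06). GFP scales had 1.7 and 7.6 RPKM, and Zic1-deltaC scales were above them (log2 difference 7.94, limma adjusted p = 0.000123) while Sox2 scales did not differ from them past the test (-1.34, limma adjusted p = 0.377). ChrUn27_FK11, unplaced, was listed at 0 in both Sox2 libraries, against 949, 797 and 706 RPKM in Zic1-deltaC scales (limma adjusted p = 3.39e-10) and 71.9 and 120.4 RPKM in GFP scales. Of these 3 scale groups it was lowest in Sox2 and highest in Zic1-deltaC scales, with no overlap.

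Chr27_FK23 and Chr27_FK5 showed the same order of groups. Chr27_FK23 had 0.4 and 0 RPKM in Sox2 scales, against 484, 501.5 and 385 RPKM in Zic1-deltaC scales (log2 difference -8.59, SE 0.49, limma adjusted p = 8.46e-10) and 74.9 and 121 RPKM in GFP scales. Chr27_FK5 had 2.4 and 0.4 RPKM in Sox2 scales, against 622, 536 and 443 RPKM in Zic1-deltaC scales (log2 difference -7.92, SE 0.56, limma adjusted p = 1.29e-08) and 111 and 118 RPKM in GFP scales. Zic1-deltaC scales were above GFP scales for Chr27_FK23 (log2 difference 2.24, limma adjusted p = 0.00337) and for Chr27_FK5 (log2 difference 2.20, limma adjusted p = 0.00952).

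Other chromosome 27 members were below 10 RPKM in both Sox2 libraries, and their difference between Zic1-deltaC and GFP scales did not pass the test. Chr27_FK24 had 0.9 and 0 RPKM in Sox2 scales, against 629.7, 635 and 407 RPKM in Zic1-deltaC scales (log2 difference -8.63, SE 0.42, limma adjusted p = 1.52e-10). Chr27_FK25 had 4.1 and 0.1 RPKM in Sox2 scales, against 732, 769.6 and 526 RPKM in Zic1-deltaC scales (log2 difference -8.14, SE 0.62, limma adjusted p = 3.06e-08). In both, Sox2 replicate 2 was the lower of the pair. Chr27_FK2 had 9.1 and 0.9 RPKM in Sox2 scales, against 1067.5, 957 and 834.5 RPKM in Zic1-deltaC scales (log2 difference -7.76, SE 0.56, limma adjusted p = 1.67e-08). Chr27_FK22 had 6.9 and 0.4 RPKM in Sox2 scales, against 608.5, 579.9 and 574 RPKM in Zic1-deltaC scales (log2 difference -7.47, SE 0.58, limma adjusted p = 3.75e-08). That Zic1-deltaC and Sox2 libraries did not overlap in these 4 genes was required by their choice.

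**Figure D4:**
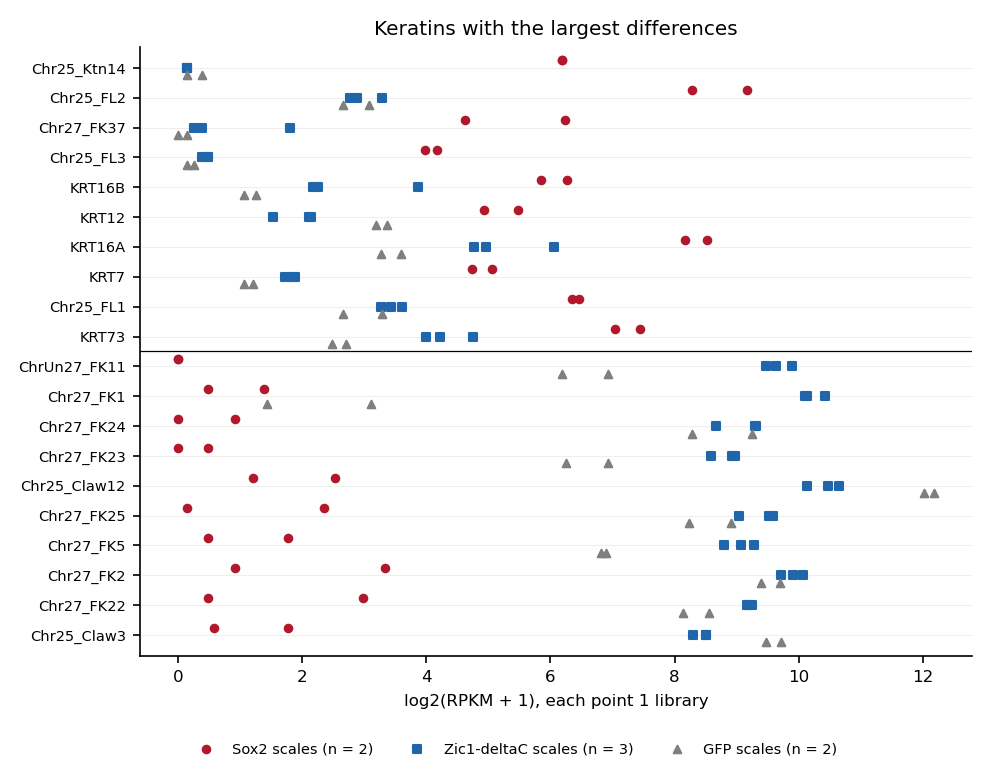
Level as log2(RPKM + 1), 1 point per library, of the 10 keratins with the largest rise (above the line) and the 10 with the largest fall (below it) in Sox2 against Zic1-deltaC scales, with GFP scales beside them. Sox2 and Zic1-deltaC libraries do not overlap, as the choice of genes required; GFP libraries lie above Zic1-deltaC libraries for Chr25_Claw12 and Chr25_Claw3 and far below them for Chr27_FK1.

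Chr27_FK37 was the 1 feather keratin called higher in Sox2 scales, with 74.4 and 23.7 RPKM against 0.2, 0.3 and 2.5 RPKM in Zic1-deltaC scales (log2 difference 4.62, SE 0.57, limma adjusted p = 7.33e-06). It had 0 and 0.1 RPKM in GFP scales and 133 and 112 RPKM in feather. The count of 1 was 4 without Sox2 replicate 2 and 3 without Zic1-deltaC replicate 3. ChrUn27_FK6, chosen after its values were seen, had 73.7 and 8.7 RPKM in Sox2 scales, against 0, 0 and 54.9 RPKM in Zic1-deltaC scales, and overlapped (log2 difference 2.82, SE 1.23, limma adjusted p = 0.0599). It passed the test without Zic1-deltaC replicate 3 (log2 difference 4.75, limma adjusted p = 4.65e-05). A replicate block in the 5 libraries gave the same difference (4.75, limma adjusted p = 0.0447). No Sox2 library has number 3, so that block in effect sets the same library aside. ChrUn27_FK6 also passed with a replicate block in all 20 libraries (3.71, limma adjusted p = 0.0124) and with a pseudocount of 0.1 (4.96, limma adjusted p = 0.031). Among the alternatives under which it did not pass were the 5 libraries alone (2.82, limma adjusted p = 0.295) and median-ratio scaling (2.42, limma adjusted p = 0.139). The difference was larger without Sox2 replicate 2 (4.29) and smaller without Sox2 replicate 1 (1.34). Each of these last fits rests on 1 Sox2 library, so only the size is given.

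Chromosome 25 held the feather keratin with the highest mean over the 5 libraries. Chr25_FK11 had 407.5 and 179 RPKM in Sox2 scales, against 2792, 2306 and 2314 RPKM in Zic1-deltaC scales (log2 difference -3.18, SE 0.41, limma adjusted p = 9.58e-06). ChrUn25_FK1, the most abundant unplaced member, had 192 and 50.7 RPKM in Sox2 scales, against 1101, 881 and 791 RPKM in Zic1-deltaC scales (log2 difference -3.20, SE 0.48, limma adjusted p = 4.65e-05). Both genes were lower in Sox2 scales with no overlap. Chr25_FK9 and Chr25_FK13 were chosen after their values were seen. Chr25_FK9 had 378 and 206 RPKM in Sox2 scales, against 328, 282.5 and 331.5 RPKM in Zic1-deltaC scales (log2 difference -0.17, SE 0.52, limma adjusted p = 0.804), and both groups were above the 35.8 and 18.2 RPKM of GFP scales. Chr25_FK13 had 636 and 468 RPKM in Sox2 scales, against 1277, 969 and 1013 RPKM in Zic1-deltaC scales (log2 difference -0.98, SE 0.36, limma adjusted p = 0.0306), a call that ended without Sox2 replicate 2 (-0.76, limma adjusted p = 0.198) or without Zic1-deltaC replicate 1 (-0.86, limma adjusted p = 0.0893). It ended too with quantile normalization (-0.77, limma adjusted p = 0.09), no filter (-0.98, limma adjusted p = 0.0734) and a robust prior (-0.98, limma adjusted p = 0.0649).

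The smaller clusters held few expressed members. Chr1_FK1 had 639.6 and 502 RPKM in Sox2 scales, against 1254, 1082 and 1057 RPKM in Zic1-deltaC scales (log2 difference -0.99, SE 0.39, limma adjusted p = 0.0402), and its call ended when any 1 of the 5 libraries was left out (limma adjusted p between 0.0581 and 0.202). It ended too with quantile normalization (-0.77, limma adjusted p = 0.157), no filter (-0.99, limma adjusted p = 0.0941), RCAS scales alone (-0.99, limma adjusted p = 0.0573) and a robust prior (-0.99, limma adjusted p = 0.0774). Chr10_FK3 had 1.5 and 2.3 RPKM in Sox2 scales, against 14.5, 8.9 and 21.4 RPKM in Zic1-deltaC scales (log2 difference -2.39, SE 0.31, limma adjusted p = 1.21e-05). Its level in Sox2 scales was near the 2.1 and 1.9 RPKM of GFP scales, and Zic1-deltaC scales were above these (log2 difference 2.33, limma adjusted p = 5.55e-05). None of the 6 chromosome 2 members was tested, and Chr2_FK5, the highest of them, had 0.5 and 0.1 RPKM in Sox2 scales and was listed at 0 in all Zic1-deltaC libraries. Chr6_BKJ, a keratin outside these classes that was chosen after its values were seen, had at most 0.5 RPKM in the 5 libraries and did not pass the test (log2 difference -0.17, SE 0.13, limma adjusted p = 0.292).

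The feather keratins were also divided by their level in GFP scales, which the log2 difference of Sox2 to Zic1-deltaC does not use. The GFP libraries do enter the filter and the spread behind the calls. Of 39 tested with a GFP mean of at least 50 RPKM, 35 were lower and 0 higher in Sox2 than in Zic1-deltaC scales (median -4.72). Of 26 with a GFP mean between 1 and 50 RPKM, 15 were lower and 0 higher (median -1.49), and of 19 below 1 RPKM, 4 were lower and 1 higher (median 0). Over all genes 10.9% were lower and 45.7% higher. Members near 0 RPKM in all 5 libraries had no room to differ, and some passed the filter only through other groups. The trend therefore depends in part on the level itself. These limits were chosen after the values were seen and the trend was not tested. A pair of the abundant ones, chosen after their values were seen, had little left in either group. Chr27_FK13 had 2 and 0.2 RPKM in Sox2 scales, against 0.3, 0.5 and 0.2 RPKM in Zic1-deltaC scales and 869 and 1204 RPKM in GFP scales, and did not pass the test between the first 2 groups (log2 difference 0.52, SE 0.34, limma adjusted p = 0.201), though it did without Sox2 replicate 2 (1.18, limma adjusted p = 0.0134). Chr27_FK12 had 5.5 and 0.4 RPKM in Sox2 scales, against 15.1, 23.6 and 13.5 RPKM in Zic1-deltaC scales and 476 and 677 RPKM in GFP scales (log2 difference -2.57, SE 0.56, limma adjusted p = 0.00113 for Sox2 against Zic1-deltaC). Its difference was -1.46 without Sox2 replicate 2.

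Alpha-keratins went both ways, with 16 of 33 higher and 12 lower in Sox2 scales. Of all tested genes 45.7% were higher, a share near that of the alpha-keratins, and 10.9% lower. After median-ratio scaling 15 were higher and 14 lower, beside 17.6% and 21.7% of all genes, and the median difference of 0.45 became 0.18. They summed to 10676 and 10093 RPKM in Sox2 scales, against 15368.5, 15098 and 16296 RPKM in Zic1-deltaC scales. Alpha-keratins made up 47.9% and 61.5% of keratin RPKM in Sox2 scales, against 20.6%, 22.2% and 24.7% in Zic1-deltaC scales. KRT3, KRT4, KRT6B, KRT6C, KRT14, KRT15, KRT17 to KRT20, KRT75B, KRT78 to KRT80 and KRT222 were added so that each role is complete, after their values were seen.

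**Figure D5:**
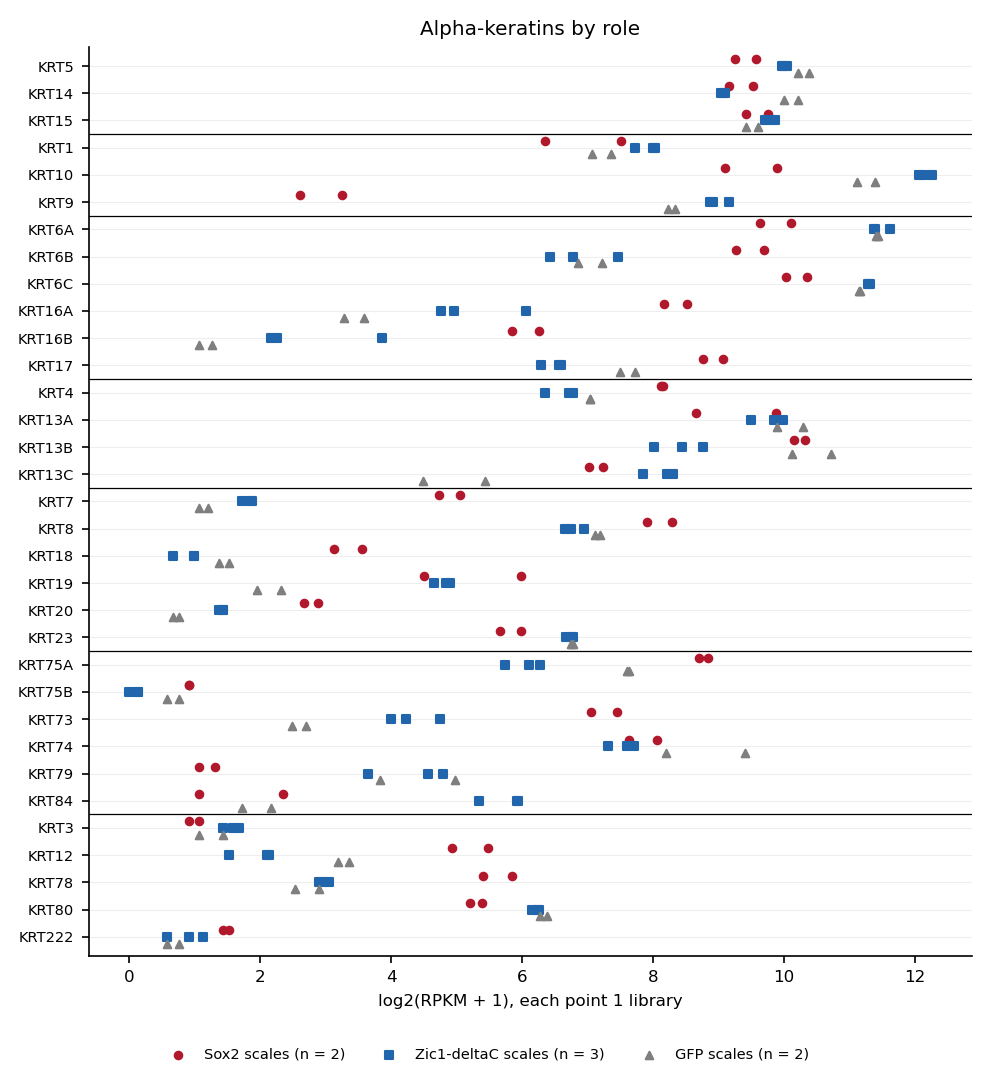
Level as log2(RPKM + 1) of the 33 alpha-keratins, 1 point per library, for Sox2, Zic1-deltaC and GFP scales; lines divide, from top to bottom, basal, suprabasal, stress, internal stratified, simple epithelial, companion layer with follicle, and other keratins. KRT9 lies at 8.5 and 5.1 RPKM in Sox2 scales and above 464 RPKM in Zic1-deltaC scales, and KRT7, KRT12, KRT16A and KRT16B lie higher in Sox2 scales.

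Suprabasal keratins, made as cells leave the basal layer, were lower in Sox2 scales in 3 of 3, where 10.9% of all genes were lower. KRT9, a keratin of palm and sole, had 8.5 and 5.1 RPKM in Sox2 scales, against 481, 569.7 and 464.5 RPKM in Zic1-deltaC scales (log2 difference -6.05, SE 0.16, limma adjusted p = 9.84e-14). KRT10, the type I keratin of the suprabasal layers, had 949.6 and 545 RPKM in Sox2 scales, against 4279.5, 4456 and 4882 RPKM in Zic1-deltaC scales (log2 difference -2.65, SE 0.20, limma adjusted p = 3.03e-08). GFP scales lay between the groups for KRT10, at 2670.4 and 2217 RPKM. KRT1, its type II partner, had 182 and 80.2 RPKM in Sox2 scales, against 254, 211 and 259.5 RPKM in Zic1-deltaC scales (log2 difference -0.99, SE 0.24, limma adjusted p = 0.00302). The call of KRT1 ended without Sox2 replicate 2 (-0.40, limma adjusted p = 0.13), and its difference was -1.57 without replicate 1. The call ended too with the 5 libraries alone (-0.99, limma adjusted p = 0.0622) and with a replicate block in them (-0.93, limma adjusted p = 0.0914). GFP scales had 163 and 133 RPKM of KRT1, within the range of the Sox2 libraries (Sox2 to GFP -0.28, limma adjusted p = 0.377). Zic1-deltaC scales were above GFP scales for KRT1 as deposited (0.71, limma adjusted p = 0.0452) but not past the test after median-ratio scaling (0.65, limma adjusted p = 0.0655). For KRT9, GFP scales lay between the groups, at 297 and 323 RPKM.

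Basal keratins, made by the dividing cells at the base of the epidermis, differed little in sum as deposited. Lower in Sox2 scales were 1 of 3 as deposited and 2 of 3 after median-ratio scaling, beside 10.9% and 21.7% of all genes. The 3 summed to 2180.1 and 2038.5 RPKM in Sox2 scales, against 2494, 2432 and 2380.1 RPKM in Zic1-deltaC scales. KRT5, the type II member, had 761 and 605 RPKM in Sox2 scales, against 1019.6, 1052 and 996 RPKM in Zic1-deltaC scales (log2 difference -0.59, SE 0.15, limma adjusted p = 0.00417), a call that ended without Sox2 replicate 2 (-0.43, limma adjusted p = 0.0828) and with a replicate block in the 5 libraries (-0.61, limma adjusted p = 0.0524). The KRT5 difference was larger after median-ratio scaling (-0.87, limma adjusted p = 0.000206) and with equal non-keratin sums (-0.77, limma adjusted p = 0.000447). KRT14, the type I partner of KRT5, had 735 and 570.1 RPKM in Sox2 scales, against 543, 546 and 523 RPKM in Zic1-deltaC scales. It did not pass the test (log2 difference 0.27, SE 0.15, limma adjusted p = 0.133), with -0.016 after median-ratio scaling and a call after quantile normalization (0.54, limma adjusted p = 0.00214). KRT15 had 684 and 863 RPKM in Sox2 scales, against 932, 834 and 861 RPKM in Zic1-deltaC scales, and passed the test after median-ratio scaling (-0.47, limma adjusted p = 0.00573) and with equal non-keratin sums (-0.36, limma adjusted p = 0.0303) but not as deposited (-0.19, limma adjusted p = 0.307).

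Keratins of stressed and fast-growing epithelium split by gene, with 4 of 6 higher and 2 lower in Sox2 scales, beside 45.7% and 10.9% of all genes. KRT16A, named for a keratin induced in wounds, had 365 and 287 RPKM in Sox2 scales, against 30.2, 26.2 and 65.9 RPKM in Zic1-deltaC scales (log2 difference 3.08, SE 0.36, limma adjusted p = 3.56e-06). KRT16B had 56.6 and 76 RPKM in Sox2 scales, against 3.5, 3.8 and 13.5 RPKM in Zic1-deltaC scales (log2 difference 3.29, SE 0.42, limma adjusted p = 8.99e-06). KRT6B and KRT17 were also higher, by 2.59 and 2.44 on the log2 scale. The lower ones were the more abundant. KRT6A had 1103 and 794 RPKM in Sox2 scales, against 2674, 2636 and 3134 RPKM in Zic1-deltaC scales (log2 difference -1.58, SE 0.16, limma adjusted p = 5.71e-07). KRT6C had 1308 and 1042.5 RPKM in Sox2 scales, against 2485, 2527 and 2499 RPKM in Zic1-deltaC scales (log2 difference -1.10, SE 0.14, limma adjusted p = 1.3e-05). The sum of the 6 was 3986 and 3463 RPKM in Sox2 scales, against 5397, 5372 and 5965 RPKM in Zic1-deltaC scales, so the sum and the count of genes differed in direction.

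Simple epithelial keratins, found in single-layered epithelia, were higher in Sox2 scales in 4 of 6 and lower in 1, where 45.7% of all genes were higher and 10.9% lower. KRT7 had 25.6 and 32.2 RPKM in Sox2 scales, against 2.6, 2.3 and 2.7 RPKM in Zic1-deltaC scales (log2 difference 3.07, SE 0.11, limma adjusted p = 4.73e-12). KRT8 had 239 and 311 RPKM in Sox2 scales, against 107, 122 and 100 RPKM in Zic1-deltaC scales (log2 difference 1.31, SE 0.16, limma adjusted p = 5.58e-06). KRT18, the partner of KRT8, and KRT20 were higher by 2.46 and 1.37 on the log2 scale, at low levels. KRT23 had 49.7 and 62 RPKM in Sox2 scales, against 109, 107.5 and 101 RPKM in Zic1-deltaC scales, and was the lower one (log2 difference -0.92, SE 0.10, limma adjusted p = 2.31e-06). KRT19 had 21.7 and 62.6 RPKM in Sox2 scales, against 28.8, 24.2 and 27.5 RPKM in Zic1-deltaC scales, and did not pass the test (log2 difference 0.45, SE 0.35, limma adjusted p = 0.283). Its log2 difference without Sox2 replicate 1 was past the test (1.20, limma adjusted p = 0.0106), and it was -0.29 without replicate 2. KRT7, KRT8, KRT18, KRT19 and KRT20, the markers listed for simple epithelium, summed to 299 and 423 RPKM in Sox2 scales, against 141, 151 and 132 RPKM in Zic1-deltaC scales and 145 and 151 RPKM in GFP scales. The part of such cells in the other differences was not tested.

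Keratins of internal stratified epithelia, such as that of the mouth, were higher in Sox2 scales in 2 of 4, near the 45.7% of all genes, and lower in 1. KRT13B had 1279 and 1139 RPKM in Sox2 scales, against 434, 346 and 258 RPKM in Zic1-deltaC scales (log2 difference 1.83, SE 0.21, limma adjusted p = 2.9e-06). GFP scales, at 1114.5 and 1674 RPKM, were close to Sox2 scales (log2 difference of Sox2 to GFP -0.18, limma adjusted p = 0.513) and above Zic1-deltaC scales (-2.01, limma adjusted p = 4.07e-06, Zic1-deltaC to GFP). KRT13C had 150.4 and 129 RPKM in Sox2 scales, against 295, 230 and 315 RPKM in Zic1-deltaC scales (log2 difference -0.99, SE 0.25, limma adjusted p = 0.00318), and both groups were above the 42.2 and 21.4 RPKM of GFP scales. KRT4 had 276 and 284 RPKM in Sox2 scales, against 104, 108 and 81 RPKM in Zic1-deltaC scales (log2 difference 1.52, SE 0.13, limma adjusted p = 1.46e-07). KRT13A, the most abundant, had 403 and 938 RPKM in Sox2 scales, against 923, 718.5 and 1016 RPKM in Zic1-deltaC scales, with overlap and no call (log2 difference -0.51, SE 0.27, limma adjusted p = 0.111). It was called lower without Sox2 replicate 2 (-1.12, limma adjusted p = 0.00188) and after median-ratio scaling (-0.79, limma adjusted p = 0.036), and differed by 0.10 without Sox2 replicate 1.

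Keratins of the companion layer and hair follicle also went both ways. KRT75A, a companion layer keratin, had 455 and 413 RPKM in Sox2 scales, against 76.3, 68.2 and 52.7 RPKM in Zic1-deltaC scales (log2 difference 2.72, SE 0.17, limma adjusted p = 2.07e-09). GFP scales lay between them at 198 and 194 RPKM, below Sox2 scales (log2 difference of Sox2 to GFP 1.14, limma adjusted p = 8.24e-05) and above Zic1-deltaC scales (-1.58, limma adjusted p = 4.59e-06, Zic1-deltaC to GFP). KRT73, an inner root sheath keratin, had 131 and 173 RPKM in Sox2 scales, against 17.7, 15 and 25.8 RPKM in Zic1-deltaC scales (log2 difference 2.92, SE 0.36, limma adjusted p = 6.28e-06). KRT84, a hair-type keratin, had 4.1 and 1.1 RPKM in Sox2 scales, against 60.5, 39.4 and 59.9 RPKM in Zic1-deltaC scales (log2 difference -4.03, SE 0.32, limma adjusted p = 4.72e-08). GFP scales had 3.5 and 2.3 RPKM of KRT84, from which Zic1-deltaC scales differed (3.79, limma adjusted p = 4.04e-07) and Sox2 scales did not past the test (-0.24, limma adjusted p = 0.576). KRT79 was lower in Sox2 scales (-3.14, limma adjusted p = 7.7e-07), and KRT74, the most abundant follicle keratin, had 197 and 267 RPKM in Sox2 scales, against 192.5, 158 and 208 RPKM in Zic1-deltaC scales, with overlap and no call (0.31, limma adjusted p = 0.393).

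Among the remaining alpha-keratins, KRT12, a keratin of the cornea, had 43.5 and 29.6 RPKM in Sox2 scales, against 3.4, 3.3 and 1.9 RPKM in Zic1-deltaC scales (log2 difference 3.28, SE 0.19, limma adjusted p = 9.43e-10). GFP scales lay between, at 9.3 and 8.1 RPKM. KRT78 was higher (2.65, limma adjusted p = 7.16e-10) and KRT80 lower (-0.92, limma adjusted p = 7.36e-07) in Sox2 scales. KRT3 and KRT222 were at or below 2.2 RPKM in the 5 libraries, where KRT3 was called lower and KRT222 higher, and the KRT222 call ended with a replicate block in the 5 libraries (0.62, limma adjusted p = 0.0609). KRT75B was at or below 0.9 RPKM, and its higher call ended after median-ratio scaling (0.63, limma adjusted p = 0.0685), with quantile normalization (0.59, limma adjusted p = 0.105), with no filter (0.83, limma adjusted p = 0.0541) and without either Sox2 library (0.83, limma adjusted p = 0.0782, and 0.83, limma adjusted p = 0.0828) or Zic1-deltaC replicate 2 (0.79, limma adjusted p = 0.0535).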

How the data were processed

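Dissected tissue was extracted in Trizol and sequenced from Illumina TruSeq V2 libraries, per the labels' protocols. The authors deposited RPKM to 1 decimal. TopHat2, Partek and the build galGal4 were used, per the submitters' processing notes; versions and settings are not stated there. All 180 keratins were the same in both deposited tables. None of the 16110 Ensembl identifiers matched the reference table, and 19 of 21 gene lists found no gene; the other 2 found KRT5, KRT14 and KRT15, and KRT1 and KRT10, described with the alpha-keratins.

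Here log2(RPKM + 1) was fitted with limma 3.58.1 in R 4.3.3 (intensity trend; 9 groups, 20 libraries, 11 residual and 5.35 prior degrees of freedom). Sox2 minus Zic1-deltaC was tested two-sided, with Benjamini-Hochberg adjustment over 11863 genes. Differences on this scale understate those of low genes. Class sums were compared by exact permutation. The scripts were tested on simulated data.

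Named were, among keratins with an adjusted p below 0.05, no overlap of libraries and at least 1 RPKM in the mean of either group, the 10 largest rises and 10 largest falls; in each keratin group the largest rise and fall and the most abundant member; passing members of the 2 lists found; and at most 2 identifiers each way. Members and lists were chosen with earlier results of these data known. The 16 alternatives changed scaling, filter, pseudocount, libraries fitted, replicate block or prior, or left out 1 library.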

Additional observations from a re-analysis of the deposited data

How the results depend on the processing

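The 5425 higher genes of 11863 tested became 2061 of 11687 with median-ratio scaling and 3160 of 11863 with quantile normalization. With equal non-keratin sums they became 3080 of 11749. A mean of at least 5 RPKM kept only 7167 genes, of which 3346 were higher, so that smaller count comes with fewer genes tested. The 1295 lower genes became 2533 with median-ratio scaling and 2158 with quantile normalization. Leaving out 1 library gave 3611 to 5014 higher and 1017 to 1206 lower genes. The 1 higher feather keratin became 2 with no filter, with RCAS scales alone or with a replicate block in all 20 libraries, 3 with the 5 libraries alone, 4 with a pseudocount of 0.1 or a replicate block in the 5 libraries, and 1 to 4 without 1 library. The log2 ratio of summed keratinocyte keratins, -2.89, became -3.17 with median-ratio scaling. That of alpha-keratins, -0.59, became -0.87 with median-ratio scaling, -0.76 with equal non-keratin sums and -0.70 with quantile normalization.

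Signs turned for genes without a call. These were Chr25_Ktn2 (-0.038) and KRT14 (-0.016) with median-ratio scaling, Chr25_FK9 with quantile normalization (0.13) and Chr27_FK39 with a replicate block in the 5 libraries (0.33). Leaving out 1 library gave -1.12 to 0.10 for KRT13A, -0.15 to 1.18 for Chr27_FK13, -2.68 to 0.33 for Chr27_FK39, -0.60 to 0.27 for Chr25_FK9 and -0.29 to 1.20 for KRT19. The cause was not tested.

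Same-numbered libraries of the groups are not said to be paired, and their deviations correlated at -0.034 for number 1 and 0.093 for number 2. Those of differently numbered libraries correlated between -0.101 and 0.101. With 2 Sox2 libraries the deviations of 1 mirror those of the other, so these values are not independent. With a replicate block limma called 5602 higher and 1241 lower genes in all 20 libraries, and 4856 and 1223 in the 5 libraries, where the calls of KRT1, KRT5, KRT222 and Chr27_FK12 ended. ChrUn27_FK6 was called with either block. The block in the 5 libraries left 1 residual degree of freedom. It also in effect set aside Zic1-deltaC replicate 3, as no Sox2 library has number 3. Leaving out that library gave KRT1, KRT5, KRT222 and Chr27_FK12 the same differences with 10 residual degrees of freedom. There they stayed called (limma adjusted p = 0.0105, 0.00827, 0.00724 and 0.00215). The calls that ended therefore cannot be read as an effect of pairing. Depth is unknown, and values to 1 decimal limit what can be read below 1 RPKM.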

Other observations

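The Sox2 libraries were not equally short of beta-keratins. Among keratins with a Sox2 mean of at least 1 RPKM, replicate 1 was above replicate 2 in 12 of 12 claw, 10 of 10 scale, 10 of 11 keratinocyte and 47 of 52 feather keratins, and more than 2-fold above it in 6, 8, 5 and 38 of these. Alpha-keratins were higher in replicate 1 in 15 of 32 and feather-like keratins in 0 of 3. The median log2 ratio of replicate 1 to replicate 2 was 1.72 for feather keratins and -0.037 for 11001 genes known by identifier.

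Zic1-deltaC replicate 3 stood more than 2-fold above both other Zic1-deltaC libraries for 12 of 69 feather keratins with a Zic1-deltaC mean of at least 1 RPKM. It did so for KRT16A and KRT16B, and for 6 of 10716 genes known by identifier. Some of the 12 reached that mean through replicate 3 itself, such as ChrUn27_FK6 (0, 0 and 54.9 RPKM) and Chr27_FK38 (0.4, 0.6 and 17.7 RPKM). Near-equal members, such as Chr27_FK40 and Chr27_FK41, were counted separately, so these shares are not directly comparable. Chr27_FK39, chosen after its values were seen, had 6.3 and 0.1 RPKM in Sox2 scales, against 1.2, 1.3 and 67.8 RPKM in Zic1-deltaC scales, and 6908 and 5583 RPKM in feather.

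A few feather keratins were higher in Zic1-deltaC scales than in feather. Chr27_FK1 had 1368, 1116 and 1093 RPKM in Zic1-deltaC scales and 456.1 and 3.3 RPKM in feather. That wide spread between the feather libraries enters its SE. ChrUn27_FK2, chosen after its values were seen, was listed at 0 in both Sox2 libraries and in both GFP libraries, and had 14.2, 16.4 and 13.7 RPKM in Zic1-deltaC scales (limma adjusted p = 2.78e-05 for Sox2 against Zic1-deltaC) and 6.5 and 1.1 RPKM in feather. Chr7_FK1, chosen in the same way, had 0.4 and 0.1 RPKM in Sox2 scales, against 5.1, 4.3 and 12.4 RPKM in Zic1-deltaC scales (log2 difference -2.61, SE 0.43, limma adjusted p = 0.000105), with 0.9 and 0.3 RPKM in feather.

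Feather keratins Chr27_FK40 and Chr27_FK41, Chr27_FK44 and ChrUn27_FK3, Chr27_FK45 and Chr27_FK46, and ChrUn27_FK12 and ChrUn27_FK5 had values within 2% of each other in both feather libraries, and each is counted as a gene of its own. Among genes known by identifier, 11 had at least 1 RPKM in both Sox2 libraries and at most 0.1 RPKM in all Zic1-deltaC libraries, and 13 the reverse.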
